A study of Homo sapiens with 2 samples.

Results

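The miR-23, miR-27 and miR-24 clusters are a pair of related groups of microRNA (miRNA) genes, and 6 of the 365 miRNA assays on the card read their products: miR-23a, miR-27a, miR-23b, miR-27b, miR-24 and miR-189. Assays were chosen by name, after the species prefix and the assay number had been dropped, and each name stood on a single assay. The study compared 1 RNA sample of CL1-5 cells stably expressing ANGPTL1, a secreted angiopoietin-like protein, with 1 RNA sample of CL1-5 cells that held pcDNA3.1, the same kind of expression vector without an insert. CL1-5 is a human lung adenocarcinoma line selected for invasiveness, and both cultures had been under the antibiotic G418 for 4 weeks. Whether each culture was a clone or a pool is not given in the sources used here.

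The genes of each cluster lie next to each other and are cut from a shared primary transcript, so that a single transcription event can yield a miR-23, a miR-27 and a miR-24. miRNAs pair with messenger RNAs mainly through their seed, bases 2 to 8 from the 5′ end, and miRNAs with the same seed have overlapping targets. miR-23 and miR-27 are known for promoting vessel sprouting through the repression of Sprouty and semaphorin genes, miR-27 represses PPARG and FBXW7, and miR-24 represses cell-cycle genes such as E2F2 and CDKN2A. In tumours the clusters have been described with both growth-promoting and growth-restraining roles.

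The mature sequences show which members share a seed, and which bases an assay must read to separate the a from the b form. They are given 5′ to 3′ from RefSeq (GRCh38.p14) with the seed in capitals. The card's names carry no arm, and unmarked names were read here as the 3′ arm of the hairpin.
miR-23a: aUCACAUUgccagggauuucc
miR-23b: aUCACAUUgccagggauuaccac
miR-27a: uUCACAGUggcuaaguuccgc
miR-27b: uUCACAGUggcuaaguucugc
miR-24: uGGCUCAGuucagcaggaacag
miR-189: uGCCUACUgagcugauaucagu
All 6 names were matched to RefSeq, miR-189 through the synonym MIR189 of the gene MIR24-1. Counted from the 5′ end, miR-23a and miR-23b differed over their first 21 bases at U19A alone, and the listed miR-23b is 2 bases longer. miR-27a and miR-27b differed at C19U alone. Both differences lie outside the seed, toward the 3′ end, where the reverse-transcription primer of such an assay binds. Whether an a assay also reads the b form was not tested.

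The a forms come from chromosome 19 and the b forms from chromosome 9. On chromosome 19 the hairpins of MIR24-2, MIR27A and MIR23A lay within 373 bases (chr19:13836287-13836659, minus strand), inside the span of the long non-coding RNA gene MIR23AHG. On chromosome 9 those of MIR23B, MIR27B and MIR24-1 lay within 881 bases (chr9:95085208-95086088, plus strand), inside the span of the protein-coding gene AOPEP. The mature miR-24 is the same from both loci, so its assay sums them. miR-189 is the 5′ arm of the chromosome 9 hairpin only. The 2 hairpins are shown with both mature arms in capitals, since the comparison of arms turns on them.
MIR24-1 (chr9:95086021-95086088, plus strand): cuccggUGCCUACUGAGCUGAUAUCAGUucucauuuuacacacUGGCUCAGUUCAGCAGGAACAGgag
MIR24-2 (chr19:13836287-13836359, minus strand): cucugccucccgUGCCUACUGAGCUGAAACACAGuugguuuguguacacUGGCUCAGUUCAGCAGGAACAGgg
The 5′ arms of the pair differ at 6 of 22 bases (U16A, U18C, C19A, A20C, G21A and U22G, from miR-189 to the arm of MIR24-2), all in the 3′ part. The 5′ arm of MIR24-2 is not analysed here.

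The measurement was quantitative PCR, and its unit is the threshold cycle (Ct), the point in the run where the fluorescence of an assay passes a fixed height; an earlier cycle means more template. An assay below cycle 35 was taken as detected, and 40 was the last cycle. The level relative to the small nucleolar RNA RNU48 is the delta Ct, from which the Ct of RNU48 has been subtracted. RNU48 stood at cycle 21.21 in ANGPTL1 cells and 20.79 in pcDNA3.1 cells, 158 and 157 of the 365 miRNAs were detected, and 145 were detected in both. With 1 sample per group no difference has an error, a test or a p-value, and each compares these RNA samples and not the conditions in general. ANGPTL1 itself was not on the card. Of 6 epithelial marker miRNAs with a single assay, miR-200c and miR-203 were detected in both samples. miR-200b, miR-205 and miR-429 stood at cycle 40 in both, and miR-141 at 35.40 in ANGPTL1 cells and 40 in pcDNA3.1 cells. Both assays named miR-200a, also an epithelial marker, were past cycle 35 in both samples. Blood, fibroblast, liver and muscle marker lists held 1 miRNA with a single assay detected in both samples (miR-133b) and 1 detected in pcDNA3.1 cells alone (miR-142-3p). The fibroblast marker miR-199a has 2 assay numbers. An assay of that name was detected in both samples, at 34.95 in ANGPTL1 cells and 33.83 in pcDNA3.1 cells, and the other stood at cycle 40 in both. Of the endothelial and neuronal markers, both assays named miR-126 and both named miR-9 were detected in both samples, miR-137 in ANGPTL1 cells alone and miR-124a in neither. Their part in the results was not tested.

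Of the 6 assays, 5 were detected in both samples, all below cycle 32, and none differed by 2-fold. miR-24 crossed threshold at cycle 22.27 in ANGPTL1 cells and 22.22 in pcDNA3.1 cells. This placed it 6th earliest of 365 assays in ANGPTL1 cells and 7th in pcDNA3.1 cells. miR-27a stood at cycle 25.43 in ANGPTL1 cells and 25.19 in pcDNA3.1 cells, which was place 20 and place 22. These were the assays of the clusters with the earliest cycles in either sample.

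The other 3 detected members were later and close together. miR-23a stood at cycle 29.71 in ANGPTL1 cells and 29.39 in pcDNA3.1 cells. miR-27b stood at 30.08 in ANGPTL1 cells and 29.75 in pcDNA3.1 cells. miR-23b stood at 30.92 in ANGPTL1 cells and 30.90 in pcDNA3.1 cells. The order of the 5 assays was thus the same in both samples, with 8.65 cycles from miR-24 to miR-23b in ANGPTL1 cells and 8.68 in pcDNA3.1 cells. Each assay has its own efficiency of reverse transcription and PCR, which was not measured, so a gap between assays is not a calibrated ratio of molecules.

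**Figure D1:**
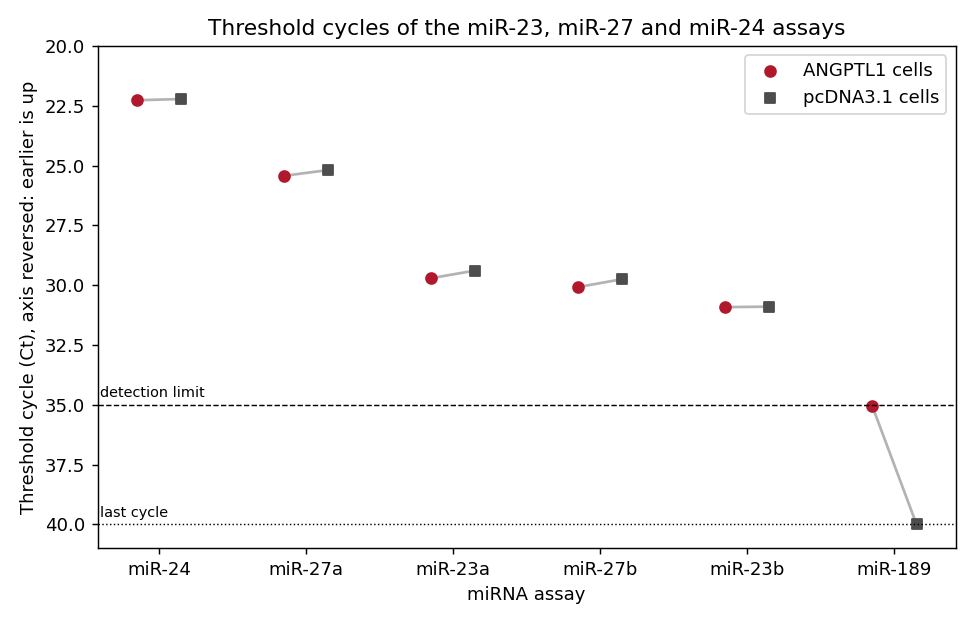
Threshold cycle (reversed axis) of each of the 6 assays in ANGPTL1 cells (circles) and pcDNA3.1 cells (squares), 1 sample each, with the detection limit of 35 (dashed) and the last cycle of 40 (dotted). The 5 detected assays span from about cycle 22 (miR-24) to about 31 (miR-23b) with nearly level lines between samples, and miR-189 lies at 35.07 in ANGPTL1 cells and 40 in pcDNA3.1 cells.

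Relative to RNU48, all 5 detected members were higher in ANGPTL1 cells, by 1.06- to 1.32-fold. The delta Ct of miR-23b was 9.71 in ANGPTL1 cells and 10.11 in pcDNA3.1 cells, a log2 ratio of 0.40 or 1.32-fold. That of miR-24 was 1.06 in ANGPTL1 cells and 1.43 in pcDNA3.1 cells, a log2 ratio of 0.37 or 1.29-fold. miR-27a, at 4.22 in ANGPTL1 cells and 4.40 in pcDNA3.1 cells, had a log2 ratio of 0.18. The remaining members lay closer still to 0, miR-23a at 0.10 (delta Ct 8.50 in ANGPTL1 cells and 8.60 in pcDNA3.1 cells) and miR-27b at 0.09 (8.87 in ANGPTL1 cells and 8.96 in pcDNA3.1 cells).

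Past the 2-fold size were 0 of 5 detected members on either side, and the sixth, miR-189, has no ratio. Of the 145 miRNAs with a ratio, 7.59% passed 2-fold on the higher side and 4.83% on the lower side, so that a count of 0 among 5 is near this background. The members' median log2 ratio was 0.18, against -0.01 over the 145, whose middle 50% of values ran from -0.41 to 0.33. The members' ratios spanned 0.31 log2 units, and 31 of the 145 miRNAs (21.4%) had a ratio within that span. Of the 145, 67 lay further from 0 than miR-23b, the member with the highest ratio, and 119 lay further than miR-27b, the member with the lowest.

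The sign of these ratios depended on the reference. With the mean cycle of the detected miRNAs as reference all 5 members stayed above 0, at 0.08 to 0.39. With their median cycle as reference the members were at -0.38 to -0.07. RNU48 itself was 0.42 cycles later in ANGPTL1 cells, and this shift is added to every ratio. In the cycles alone, all 5 members were later in ANGPTL1 cells than in pcDNA3.1 cells, by 0.33 (miR-27b), 0.32 (miR-23a), 0.24 (miR-27a), 0.05 (miR-24) and 0.02 cycles (miR-23b), and their median log2 ratio was -0.24. Over all 145 miRNAs the median without a reference was -0.43. Relative to RNU48 the share of the 145 with a ratio above 0 was 49.7%, and without a reference it was 20.7%. The members' median therefore lay above the median of all detected miRNAs by 0.19 on either scale, while their direction against 0 turned.

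**Figure D2:**
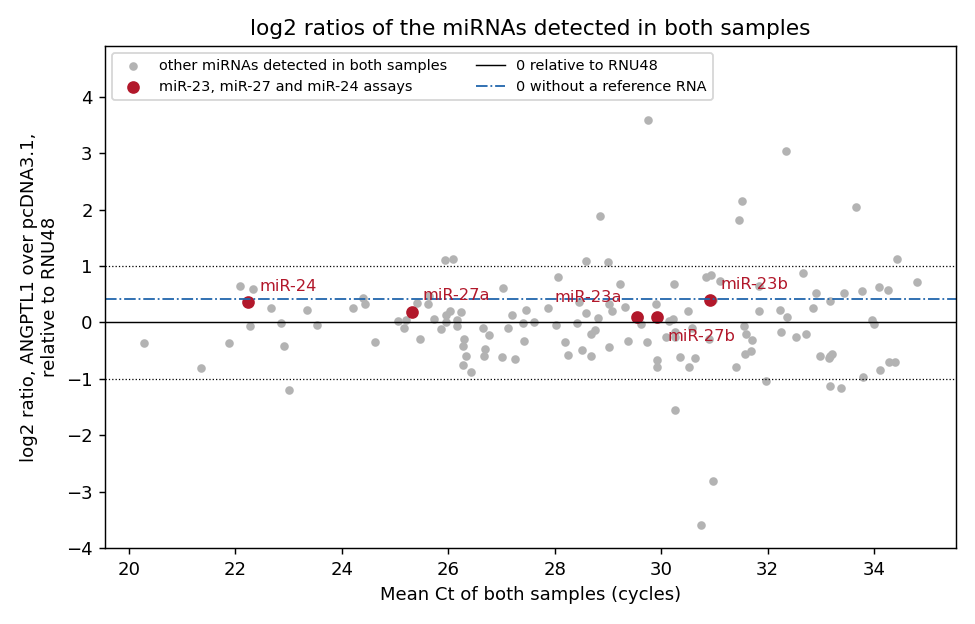
log2 ratio of ANGPTL1 over pcDNA3.1 cells relative to RNU48 (vertical axis) against the mean Ct of both samples (horizontal axis) for the 145 miRNAs detected in both samples, with the clusters' assays in red, 2-fold marked by dotted lines and the zero line that holds without a reference RNA in blue at 0.42. The 5 red points lie between the black and the blue zero lines, at 0.09 to 0.40.

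Comparing the a with the b form within each sample removes RNU48 from the comparison. miR-23b crossed threshold 1.21 cycles after miR-23a in ANGPTL1 cells and 1.51 cycles after it in pcDNA3.1 cells, so that the gap was smaller by 0.30 cycles in ANGPTL1 cells. miR-27b came 4.65 cycles after miR-27a in ANGPTL1 cells and 4.56 cycles after it in pcDNA3.1 cells, a gap larger by 0.09 cycles. The a assay was thus the earlier of each pair in both samples. The changes of the pairs between samples had opposite signs, but no error is known for either, and that of miR-27 was small. A fixed difference in efficiency between the assays cancels in these changes and does not cancel in the gaps.

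Other near-identical miRNAs give the scale of such changes. The card held 34 pairs of single-assay names that differ in the last letter and whose RefSeq sequences differ at 1 or 2 bases, and in 20 of them both assays were detected in both samples. Over the 18 pairs outside the clusters the gap changed by 0.05 to 1.63 cycles in size, with a median of 0.44. The smallest change was that of miR-20a and miR-20b, of the family of the growth-promoting miR-17, and the largest that of let-7a and let-7b, of the family that represses RAS and HMGA2. miR-27a with miR-27b changed less than 17 of the 18, and miR-23a with miR-23b less than 13. The pairs are not independent, since let-7 assays enter most of them and most of the larger changes. Outside let-7 the other pairs changed by 0.05, 0.19, 0.21, 0.22, 0.34, 0.40 and 1.31 cycles in size. The 0.30 of miR-23a with miR-23b lay in the middle of these values, so its place among the 18 depends on let-7.

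**Figure D3:**
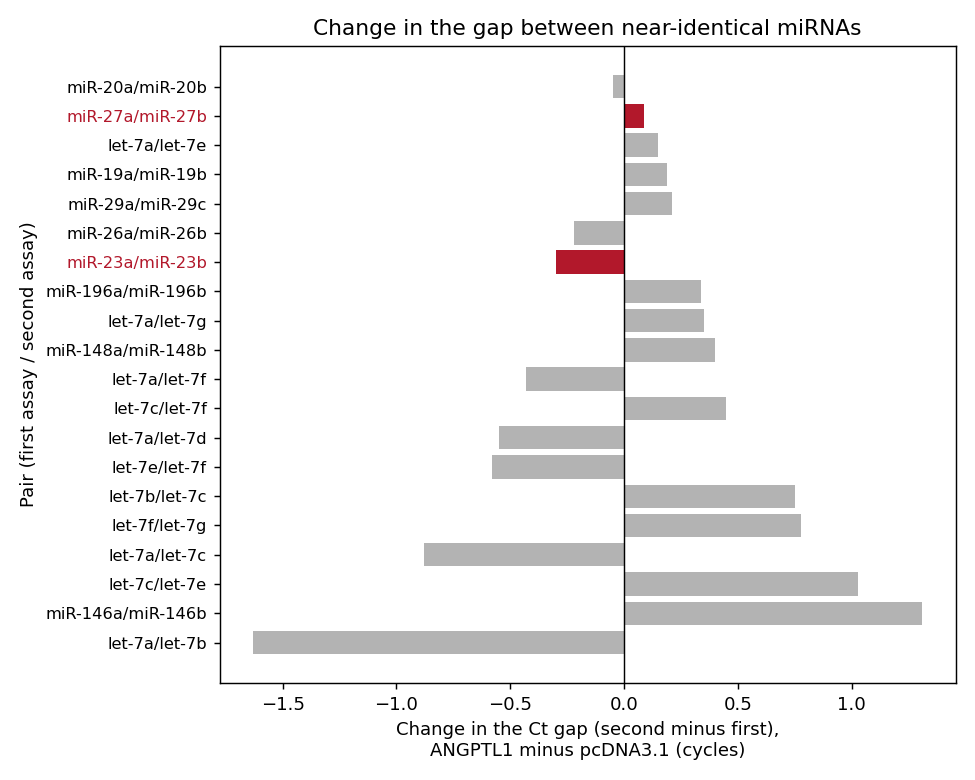
Change in the Ct gap between near-identical miRNAs, ANGPTL1 minus pcDNA3.1 cells (horizontal axis, cycles), for 20 pairs ordered by the size of the change, with the clusters' pairs in red. The bar of miR-27a/miR-27b is at 0.09 and that of miR-23a/miR-23b at -0.30, and the bars of the other 18 pairs reach from 0.05 to 1.63 in size.

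Set side by side by locus, the chromosome 19 assays had nearly the same ratio and the chromosome 9 assays less so. miR-23a and miR-27a differed by 0.08 log2 units around a median of 0.14, and miR-23b and miR-27b by 0.31 around a median of 0.245. The gap from miR-27a to miR-23a was 4.28 cycles in ANGPTL1 cells and 4.20 in pcDNA3.1 cells. The gap from miR-27b to miR-23b was 0.84 cycles in ANGPTL1 cells and 1.15 in pcDNA3.1 cells. On chromosome 19 the miR-27 assay therefore ran over 4 cycles ahead of its neighbour, and on chromosome 9 about 1 cycle ahead, in both samples.

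miR-24, which both loci encode, was ahead of every other member. It led miR-27a by 3.16 cycles in ANGPTL1 cells and 2.97 in pcDNA3.1 cells, a change of 0.19. Its lead over miR-23a changed by 0.27, over miR-27b by 0.28 and over miR-23b by -0.03 cycles. In the ratio between samples miR-23b (0.40) was the member closest to miR-24 (0.37) and miR-27b (0.09) the farthest, and both of these lie on chromosome 9. Also on chromosome 19, MIR181C and MIR181D begin 38.04 and 38.22 kb beyond MIR23A. miR-181d stood at cycle 30.60 in ANGPTL1 cells and 29.93 in pcDNA3.1 cells, a log2 ratio of -0.25, and miR-181c was past the detection limit in both samples, at 38.14 in ANGPTL1 cells and 37.59 in pcDNA3.1 cells.

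The arms of the miR-24 hairpin were far apart. miR-189, the 5′ arm, stood at cycle 35.07 in ANGPTL1 cells, 0.07 cycles past the detection limit, and at 40 in pcDNA3.1 cells. With the later arm set to the limit of 35, miR-24 was ahead of miR-189 by at least 12.73 cycles in ANGPTL1 cells and at least 12.78 cycles in pcDNA3.1 cells. As bounds, these do not give a change in arm use between the samples. The 5′ arm of MIR24-2 enters neither value, while the miR-24 assay holds the 3′ arm of both hairpins.

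By name, 25 other hairpins had both arms on the card, 11 with names ending in 5p and 3p and 14 with a name on 2 assay numbers, for which the arm is unsettled and the size of the gap alone was used. An arm was detected in both samples for 10 of them, and both arms in both samples for 5. In those 5 the gap was 1.17 to 6.87 cycles in ANGPTL1 cells and 0.97 to 6.66 in pcDNA3.1 cells. Among these 5 the smallest gap was that of miR-324 and the largest that of miR-17. The names miR-425 and miR-425-5p fall outside this rule and were added after their values were seen. Their gap was 0.33 cycles in ANGPTL1 cells and 1.24 in pcDNA3.1 cells, smaller in ANGPTL1 cells than that of miR-324. In the remaining 5 hairpins the later arm was past the limit in at least 1 sample, and there the gap is a bound. The highest bounds were those of miR-182, at least 6.42 cycles in ANGPTL1 cells and at least 7.19 in pcDNA3.1 cells. A bound cannot exceed the distance of the earlier arm from cycle 35, and miR-24 had the earliest cycle of the arms compared, so the order of bounds is not an order of arm use.

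**Figure D4:**
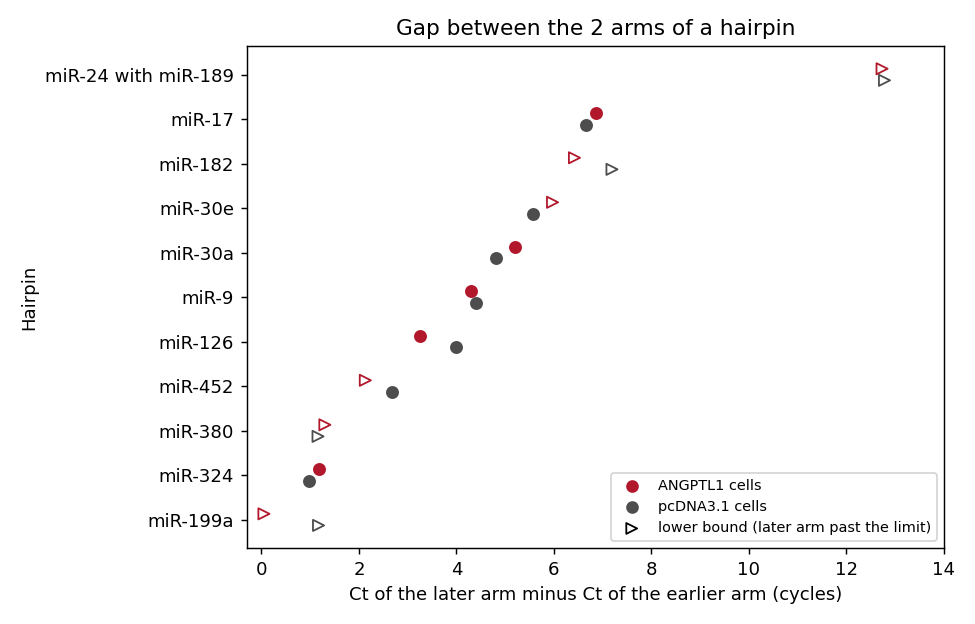
Ct of the later arm minus Ct of the earlier arm (horizontal axis, cycles) for miR-24 with miR-189 and the 10 other hairpins, chosen by name, with an arm detected in both samples, in ANGPTL1 cells (red) and pcDNA3.1 cells (grey); open triangles are lower bounds, where the later arm was past cycle 35. miR-24 with miR-189 lies at 12.73 and 12.78 as bounds, and the measured gaps of the others plotted reach 6.87.

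With the limit of 35, a difference in miR-189 between the samples was not detectable. The limit decides this: with a limit of 38, miR-189 was detected in ANGPTL1 cells alone. Relative to RNU48 it was then at least 10.3-fold higher there, a log2 bound of 3.36 that includes the RNU48 shift of 0.42. The authors' deposited table gives 41.1-fold for miR-189, also relative to RNU48. That fold rests on the value of 40 in pcDNA3.1 cells, and 6 assays including miR-189 have a fold that high in that table. Altogether 21 miRNAs stood at 40 in pcDNA3.1 cells and between 35 and 40 in ANGPTL1 cells, and miR-189 was the earliest of them, followed by miR-1 at 35.35. The reverse held for 19 miRNAs, of which miR-489 was the earliest, at 40 in ANGPTL1 cells and 35.33 in pcDNA3.1 cells. Late values at cycle 40 in the other sample thus occurred on both sides in similar number.

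Of the 359 other assays, 304 had a name that RefSeq lists with or without an arm, and none of these shared a member's seed. Among 2370 mature miRNAs of RefSeq, the seed of miR-23 (UCACAUU) stands in 3, that of miR-27 (UCACAGU) in 3, that of miR-189 (GCCUACU) in 2 and that of miR-24 (GGCUCAG) in miR-24 alone. The brain-enriched miR-128, whose seed overlaps that of miR-27 with a shift of 1 base, was read by the assay miR-128b.
miR-128: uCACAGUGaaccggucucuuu
That assay stood at cycle 40 in both samples, so that no level was measured for it.

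The assays nearest to the members in delta Ct over both samples, taken from 140 other detected miRNAs, were miR-195 for miR-23a (0.036 cycles away), miR-148a for miR-27b (0.01), miR-32 for miR-23b (0.099), miR-30b for miR-27a (0.173) and miR-99a for miR-24 (0.192). With 2 samples this likeness describes a level and a ratio only. Since the log2 ratio is the difference of the same 2 delta Ct values, a like ratio follows largely from this choice. miR-32 had the same log2 ratio as miR-23b (0.40), and miR-99a a higher one than miR-24 (0.59 against 0.37).

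miRNAs linked with the clusters in hypoxia were measured on the same card. Of 10 listed, 9 were on the card and 6 detected in both samples, with 0 at least 2-fold higher and 1 at least 2-fold lower, against 7.59% and 4.83% of the 145. Their median log2 ratio was -0.095, against -0.01 over all 145. The miRNA past 2-fold was miR-107, which lies in a pantothenate kinase gene, at cycle 32.70 in ANGPTL1 cells and 31.24 in pcDNA3.1 cells (log2 ratio -1.04). miR-26b stood at 0.47 and miR-26a at 0.25, both encoded in introns of CTD phosphatase genes. miR-210, the miRNA most firmly tied to hypoxia-inducible factor, was at cycle 25.82 in ANGPTL1 cells and 25.11 in pcDNA3.1 cells, a log2 ratio of -0.29. miR-181b was detected in ANGPTL1 cells alone, at cycle 31.95 against 35.77 in pcDNA3.1 cells. Relative to RNU48 it was at least 11.1-fold higher there, a log2 bound of 3.47 that includes the RNU48 shift of 0.42.

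Of 15 miRNAs linked to vessel growth, 14 had a single assay and 13 of these were detected in both samples. Their median log2 ratio was -0.01, the same as that of all 145, and 1 of 13 was at least 2-fold higher and 0 at least 2-fold lower, against 7.59% and 4.83% of the 145. The higher one was miR-130a, which represses the homeobox genes GAX and HOXA5, at cycle 25.60 in ANGPTL1 cells and 26.29 in pcDNA3.1 cells (log2 ratio 1.11). Without a reference the counts turned round to 0 higher and 1 lower, with miR-130a at 0.69 and miR-296 at -1.02. On that scale 6 of the 145 were higher and 29 lower, since the shift of RNU48 is shared by all assays. Relative to RNU48 miR-296 was at -0.60, miR-378 at -0.44 and miR-222, which represses KIT, at -0.36. miR-218 was below cycle 35 only in ANGPTL1 cells, at 34.85 against 37.32 in pcDNA3.1 cells. Relative to RNU48 it was at least 1.48-fold higher, a log2 bound of 0.57 that includes the RNU48 shift of 0.42. The clusters' own ratios of 0.09 to 0.40 lay inside the range of this list.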

How the data were processed

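Mature miRNAs of 1 ANGPTL1 and 1 pcDNA3.1 sample were measured on a TaqMan Low Density Array, Human MicroRNA Panel 1.0, from 500 ng of total RNA and 40 PCR cycles, per the labels' protocols. The 3 deposited tables held the average Ct of 366 assays, the delta Ct (Ct minus Ct of RNU48) and the fold change, a ratio of ANGPTL1 over pcDNA3.1 cells that the authors took from the difference in delta Ct, per the file headers. Deposited delta Ct differed from the recomputed one by at most 0.01. How many wells were averaged, and with what threshold and software, is not given in the sources used here. The unit of Ct and delta Ct is cycles, and linear columns that repeat delta Ct were not used.

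The log2 ratio was delta Ct in pcDNA3.1 minus delta Ct in ANGPTL1 cells, so positive means higher in ANGPTL1 cells. Assays below cycle 35 were detected. Ratios were counted for miRNAs detected in both samples, at a threshold of 2-fold; for an assay detected in 1 sample, 35 replaced the later Ct and gave a bound. List entries on 2 assay numbers were left out of list counts. Calculations used Python 3.11.15 and pandas 2.3.3. The calculation of the log2 ratio was run on simulated assays detected in both samples and returned the ratios put in. Bounds and gaps between assays were not simulated. Named were the members, their nearest assays, seed relatives, extreme pairs and hairpins, and up to 4 miRNAs per list. The limit of 4 was not kept for the cell type markers, and miR-215 was named beyond it. miR-181b, miR-181c, miR-181d, miR-218, miR-1 and miR-489 were named after their values were seen. The members and lists were chosen with earlier results of these data known. Alternatives covered the reference, the detection limit and the fold threshold.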

Additional observations from a re-analysis of the deposited data

How the results depend on the processing

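Among the 5 cluster members detected in both samples, the count past the fold was 0 on either side with every reference, detection limit and fold threshold tried. miR-189 is outside this count. Without a reference the members' log2 ratios were -0.33 (miR-27b), -0.32 (miR-23a), -0.24 (miR-27a, also the median), -0.05 (miR-24) and -0.02 (miR-23b). With the median cycle of the detected miRNAs as reference they were -0.38, -0.37, -0.29 (again the median), -0.10 and -0.07 in the same order. With the mean cycle the median ratio was 0.165, and with the median of the per-miRNA differences, added after the data were seen, it was 0.19. With miR-189 taken in at its deposited cycles the median was 0.275. With a detection limit of 38, miR-189 was at least 10.3-fold higher in ANGPTL1 cells relative to RNU48. The 5 detected members lay below cycle 32 in both samples, so the limits of 32 and 38 could not change their ratios.

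Over all miRNAs, 11 were higher and 7 lower past 2-fold. The counts were 6 and 29 without a reference, 6 and 31 with the median cycle, 6 and 2 below cycle 32, 23 and 11 below 38, 29 and 12 with no limit, 24 and 28 at 1.5-fold and 4 and 2 at 4-fold. The counts rest on 107 miRNAs below cycle 32, 176 below 38, 187 with no limit and 145 in the other settings. No paired analysis was possible because there was 1 sample per group, and no replicate could be left out.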

Other observations

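A list of 16 miRNAs linked to TGF-beta signalling and the epithelial-mesenchymal transition, programmes in which miR-23 and miR-27 have also been described, had 14 names with a single assay on the card, of which 8 were detected in both samples. Their median log2 ratio was -0.11, against -0.01 over all 145 detected miRNAs, and their mean was 0.52. Past 2-fold were 2 of 8 on the higher side and 0 on the lower, with or without RNU48. Over the 145 the shares were 7.59% and 4.83% relative to RNU48, and the counts 6 and 29 without it. miR-155, which is induced in immune activation, stood at cycle 28.18 in ANGPTL1 cells and 31.34 in pcDNA3.1 cells, a log2 ratio of 3.58. miR-200c, which represses ZEB1 and ZEB2, stood at 30.77 in ANGPTL1 cells and 32.16 in pcDNA3.1 cells, a log2 ratio of 1.82. miR-21 was at -0.42 and miR-203 at -0.30. miR-215 was detected in pcDNA3.1 cells alone, at 34.91 against 40 in ANGPTL1 cells, and the bound on its ratio lay above 0 and gives no direction. The ratios and list medians given here are relative to RNU48 and are lower by 0.42 without it.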
